A study of Mus musculus with 8 samples.

Results

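The Slc25 genes encode the mitochondrial carriers, the family of membrane proteins that passes metabolites, nucleotides, cofactors and metal ions across the inner mitochondrial membrane. They were taken from the deposited count table as the genes whose mouse symbol, looked up from the Ensembl ID, starts with Slc25a, without pseudogenes. This rule was met by 47 of the 55414 genes counted, and the 44 with at least 10 counts pooled over the 8 libraries were kept. The libraries were made from Kupffer cells (macrophages that reside in the liver), sorted by flow cytometry from wild-type C57BL/6J mice 2 h after surgery. In the CLP group (4 libraries) the operation was caecal ligation and puncture, a model of sepsis in which gut contents leak into the abdomen. In the Sham group (4 libraries) mice of the same genotype had a sham operation. Whether each library came from a separate mouse is not stated in the labels. The p-values below therefore reflect only how these libraries vary, which may be technical variation.

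Carriers of this family are built of repeats of a common fold, and each accepts a narrow set of substrates, usually in exchange for another molecule. They supply the matrix with ADP, phosphate, amino acids, coenzyme A, NAD+ and iron, and export ATP, citrate and aspartate. In macrophages the citrate and malate carriers join the tricarboxylic acid cycle to the cytosol, and the iron and glycine carriers feed heme synthesis and iron-sulphur cluster assembly.

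Libraries held 23311897 to 28724875 counts. Scaling factors (TMM, which corrects for differences in library composition) averaged 0.825 ± 0.0165 in CLP and 1.21 ± 0.0557 in Sham (SD, n = 4 each). The leading principal component (76.7% of the variance) split CLP from Sham, and the next (10.0%) set CLP replicate 1 off from the rest of its group. All 8 Kupffer cell markers looked for were detected, with a summed level of 28010 to 36340 CPM (counts normalised to the TMM-scaled library size) in CLP and 21300 to 27930 CPM in Sham. Markers of other cells were present too. The 10 neutrophil markers summed to 51.3, 86.8, 235 and 222 CPM in CLP replicates 1 to 4, against 2.57 to 6.20 CPM in Sham. All 6 of those tested rose. Of those with too few counts to test, Ly6g and Camp had 0 counts in Sham. Elane had 0 counts in CLP and 9 in Sham, and Mpo had 4 in each group. The 6 platelet markers summed to 118 to 192 CPM in CLP and 15.1 to 28 CPM in Sham, and the 10 hepatocyte markers to 3039 to 4003 CPM in CLP and 2367 to 3244 CPM in Sham. The hepatocyte sums overlapped between the groups, and of the 10 markers 1 rose (Fgb) and 0 fell. Alb alone held 2263 of the mean hepatocyte sum of 3429 CPM in CLP and 1710 of 2780 CPM in Sham. Cps1 and Tat had lower means in CLP but did not pass. The sums of the 7 sinusoidal endothelial markers lay apart, at 2231 to 2762 CPM in CLP and 1551 to 1965 CPM in Sham. Cdh5 alone held 1914 of the mean endothelial sum of 2439 CPM in CLP and 1277 of 1824 CPM in Sham. The endothelial sums therefore mostly followed this gene. Of the 7 markers 3 rose and 0 fell, while Stab2 and Pecam1 had lower means in CLP but did not pass. The sums of the 5 B cell markers lay apart too, at 16.4 to 27.2 CPM in CLP and 7.85 to 13.4 CPM in Sham. Of these markers 4 rose and 1, Cd79b, fell. The sums of the 5 stellate cell markers also lay apart, at 146 to 177 CPM in CLP and 112 to 135 CPM in Sham. Ecm1 alone held 122 of the mean stellate sum of 164 CPM in CLP and 91.3 of 122 CPM in Sham. Of the stellate markers 2 rose, Ecm1 and Dcn, and 0 fell. The 5 monocyte markers, at 223 to 364 CPM in CLP and 172 to 291 CPM in Sham, and the 6 T and NK cell markers, at 0.779 to 2.63 CPM in CLP and 0.397 to 0.884 CPM in Sham, overlapped. On total-count scaling the mean sums of Kupffer, hepatocyte, endothelial, stellate and monocyte markers were lower in CLP than in Sham. The part of these cells in the carriers' differences was not tested. In such bulk samples fewer cells of a type and less RNA per cell cannot be told apart.

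Of the 40 carriers tested 20% rose 2 h after CLP and 42.5% fell, against 24.9% and 29.5% of all genes tested. On total-count scaling 3 carriers were higher and 28 lower. Slc25a28, which encodes an iron importer (mitoferrin 2), was 6.26 times as high in CLP as in Sham, and Slc25a42, a coenzyme A carrier, 2.90 times. Slc25a45, whose substrate is not firmly settled, was 3.83 times as high in Sham as in CLP, and Slc25a38, the glycine carrier that serves heme synthesis, 2.36 times. The promoters of these 4 genes, from 250 bases before to 50 after the start of the transcript, are shown because their transcripts moved far and in both directions. They are RefSeq sequences on build GRCm38.p6, read 5′ to 3′ on the strand of the gene. The build is older than mm39, the build in the submitters' processing notes, and the count table gives no positions. Slc25a28 lies on the minus strand at chr19:43674832-43675131, Slc25a42 on the minus strand at chr8:70212232-70212531, Slc25a45 on the plus strand at chr19:5877572-5877871 and Slc25a38 on the plus strand at chr9:120110132-120110431. Capitals mark the GC box, GGGCGG or its reverse complement CCGCCC.
Slc25a28: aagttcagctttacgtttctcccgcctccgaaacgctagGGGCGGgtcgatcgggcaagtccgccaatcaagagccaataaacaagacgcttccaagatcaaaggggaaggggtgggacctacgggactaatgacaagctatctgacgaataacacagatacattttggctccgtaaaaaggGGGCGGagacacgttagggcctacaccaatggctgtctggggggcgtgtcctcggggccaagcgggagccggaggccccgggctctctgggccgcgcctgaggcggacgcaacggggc
Slc25a42: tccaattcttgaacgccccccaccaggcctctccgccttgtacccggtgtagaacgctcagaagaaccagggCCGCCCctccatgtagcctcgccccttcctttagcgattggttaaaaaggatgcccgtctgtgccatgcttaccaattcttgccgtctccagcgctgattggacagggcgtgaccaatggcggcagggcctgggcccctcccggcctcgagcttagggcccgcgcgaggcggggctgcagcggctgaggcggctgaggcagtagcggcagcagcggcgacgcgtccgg
Slc25a45: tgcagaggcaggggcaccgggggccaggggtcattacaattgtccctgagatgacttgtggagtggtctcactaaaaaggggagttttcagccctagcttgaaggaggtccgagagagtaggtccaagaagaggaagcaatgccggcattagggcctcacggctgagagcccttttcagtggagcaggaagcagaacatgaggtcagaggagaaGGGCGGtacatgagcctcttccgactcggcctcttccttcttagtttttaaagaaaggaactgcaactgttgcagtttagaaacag
Slc25a38: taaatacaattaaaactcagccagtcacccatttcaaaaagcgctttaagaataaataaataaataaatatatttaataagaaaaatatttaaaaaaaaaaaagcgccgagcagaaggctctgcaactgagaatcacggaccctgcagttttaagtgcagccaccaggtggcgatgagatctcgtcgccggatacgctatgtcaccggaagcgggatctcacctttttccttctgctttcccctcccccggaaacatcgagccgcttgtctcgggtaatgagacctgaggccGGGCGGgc

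The promoter table held 44 promoters for 34 of the 44 carriers. A carrier was counted if any of its promoters held the motif, while the percentages below are shares of single promoters. The carrier counts and the percentages are therefore not like for like. At least 1 GC box lay in 30 of these 34 carriers, and in 35.7% of all 32851 promoters in the table. It was present in 5 of 5 carriers with an entry that rose and in 11 of 12 that fell. Slc25a28 had 2 GC boxes and the other genes shown had 1 each. Searched on both strands, the E-box CACGTG was found in 7 of the 34 carriers and 7.15% of all promoters, the cyclic AMP element TGACGTCA in 2 carriers and 1.79%, the gamma-activated site TTCNNNGAA in 1 carrier and 8.30%, the NRF1 motif GCGCANGCGC in 2 carriers and 4.60%, and the kappaB motif in 4 carriers and 8.46%. No motif searched contains another. None of these 5 other motifs was in the windows of Slc25a28, Slc25a42, Slc25a45 or Slc25a38. Such matches describe the letters of each window only.

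Of the 44 carriers 40 had enough counts to be tested. With edgeR's quasi-likelihood test at an adjusted p of 0.05 over 14655 genes, 8 carriers rose in CLP (20%), 17 fell (42.5%) and 15 did not pass. Over all genes tested, 24.9% rose and 29.5% fell, 54.3% in all, against 62.5% of the carriers. The small counts by class given below are to be read beside these shares, and no class was tested as a set. At least 2-fold changes were seen in 3 carriers upward (7.5%) and 10 downward (25.0%), against 12.8% and 15.9% of all genes. Libraries of CLP and Sham were fully apart in 24 of the 40 carriers (60.0%), against 49.5% of all genes. The CLP libraries lay above in 7 of these carriers and below in 17, against 22.1% and 27.3% of all genes. The median log2 fold change (CLP over Sham) was -0.33 over the carriers and -0.04 over all genes, and the carriers ranged from -2.16 to 2.65. Scaling by total counts alone lowered the median of all genes by 0.56 on the log2 scale and left 3 carriers higher and 28 lower.

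**Figure D1:**
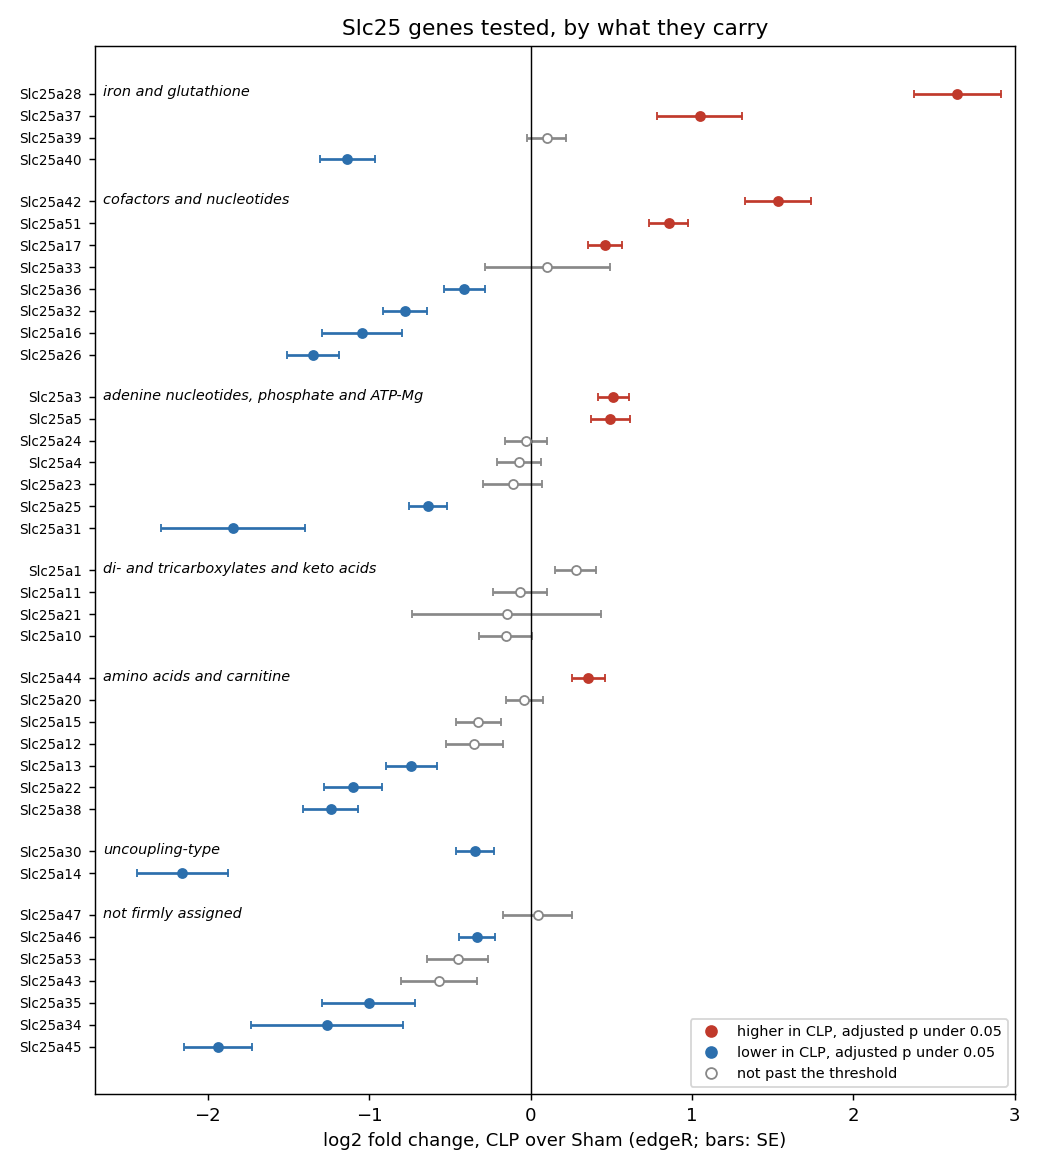
Log2 fold change (CLP over Sham, x axis) of 39 of the 40 Slc25 genes tested, grouped by what they carry, with bars of 1 SE from edgeR; filled points passed an adjusted p of 0.05 and open points did not. Rises and falls stood side by side in most groups, from 2.65 for Slc25a28 down to -2.16 for Slc25a14, and none of the 4 carriers of di- and tricarboxylates and keto acids passed.

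Summed over the 44 genes, carrier transcripts amounted to 1666 ± 46.2 CPM in CLP, against 1400 ± 53.9 CPM in Sham (SD, n = 4 each), a ratio of 1.19 that turned to 0.811 on total-count scaling. Levels of different genes were compared per kilobase of exon, with all annotated exons of a gene merged. The comparison is rough, since the transcripts present may be shorter. Slc25a5, the main adenine nucleotide translocase of growing cells, came first with a mean of 151 CPM per kb over the 8 libraries. Slc25a3, the phosphate carrier, followed at 38.6 and Slc25a51, the NAD+ carrier, at 36.4 CPM per kb. These 3 genes took 46.8% to 49.2% of the family's CPM in CLP libraries and 35% to 40.2% in Sham libraries. At the low end, 6 carriers averaged under 1 CPM in both groups: Slc25a2, Slc25a21, Slc25a27, Slc25a29, Slc25a34 and Slc25a48.

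**Figure D2:**
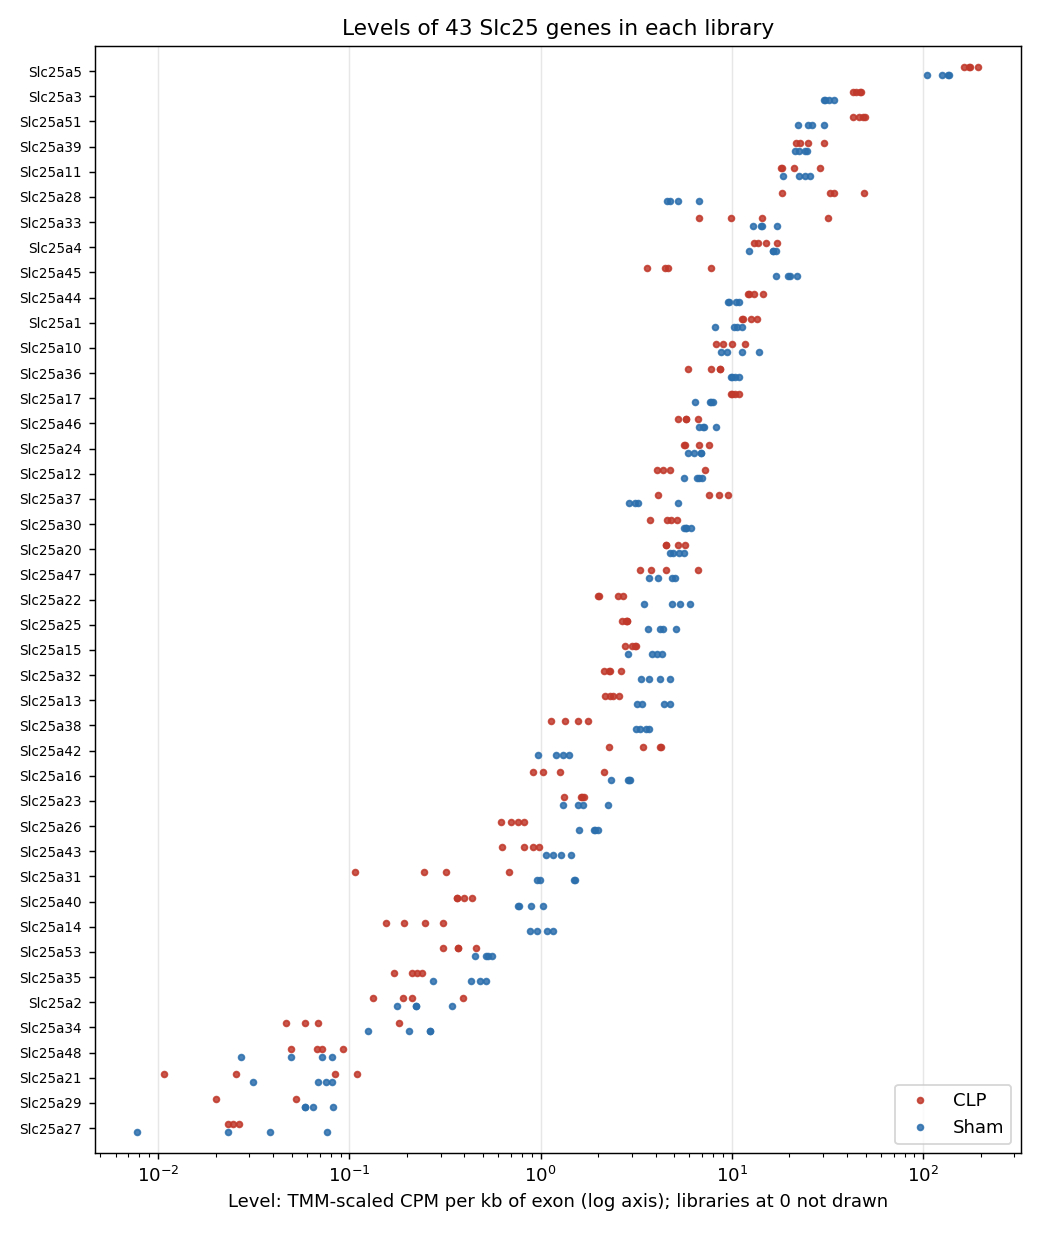
Level of 43 of the 44 Slc25 genes in each library, as TMM-scaled CPM per kb of exon on a log axis, ordered by the mean over all 8 libraries; CLP points are drawn above Sham points, and libraries at 0 are not drawn. The levels span Slc25a5, at a mean of 177 CPM per kb in CLP and 125 in Sham, down to Slc25a27, at 0.0187 in CLP and 0.0366 in Sham.

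Among the iron and glutathione carriers 2 of 4 rose and 1 fell (median log2 fold change 0.57). Slc25a28 had 68.2, 128, 121 and 184 CPM in CLP replicates 1 to 4, against 19.6, 17.8, 25.4 and 17.3 CPM in Sham. Every CLP library lay above every Sham library, and CLP replicate 1 was the lowest of its group. This was the largest rise of the family, with a log2 fold change of 2.65 ± 0.27 (SE; edgeR adjusted p = 2.33e-05). It stayed between 2.08 and 2.85 in the 15 alternatives run. Slc25a37, which encodes mitoferrin 1, the iron importer that red cell precursors depend on, had 24.8, 46.0, 51.9 and 57.2 CPM in CLP, against 17.4, 18.7, 31.5 and 19.4 CPM in Sham. CLP replicate 1 lay below Sham replicate 3, so the groups overlapped. On the log2 scale the rise was 1.05 ± 0.26 (edgeR adjusted p = 0.00656), and on total-count scaling 0.48 (adjusted p = 0.144). Of 10 erythroid markers looked for, Ahsp was not matched and Hba-a2 had 0 counts in all libraries. The erythroid sum was 8.78 to 21.8 CPM in CLP and 3.69 to 10.9 CPM in Sham, and its part in the Slc25a37 difference was not tested.

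Slc25a39 and Slc25a40 encode related carriers that take glutathione into mitochondria. Slc25a39 had 83.1, 59.4, 62.7 and 69.0 CPM in CLP, against 68.5, 66.2, 59.1 and 61.9 CPM in Sham. The groups overlapped, and the log2 fold change of 0.10 ± 0.12 did not pass (edgeR adjusted p = 0.499). On total-count scaling it turned to -0.45 (adjusted p = 0.00749), and with a correction for GC content it passed at 0.35 (adjusted p = 0.0195). Slc25a40 had 3.66, 3.35, 3.07 and 3.07 CPM in CLP, against 6.42, 6.46, 7.51 and 8.59 CPM in Sham. All CLP libraries lay below all Sham libraries, with a log2 fold change of -1.14 ± 0.17 (edgeR adjusted p = 0.000269).

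**Figure D3:**
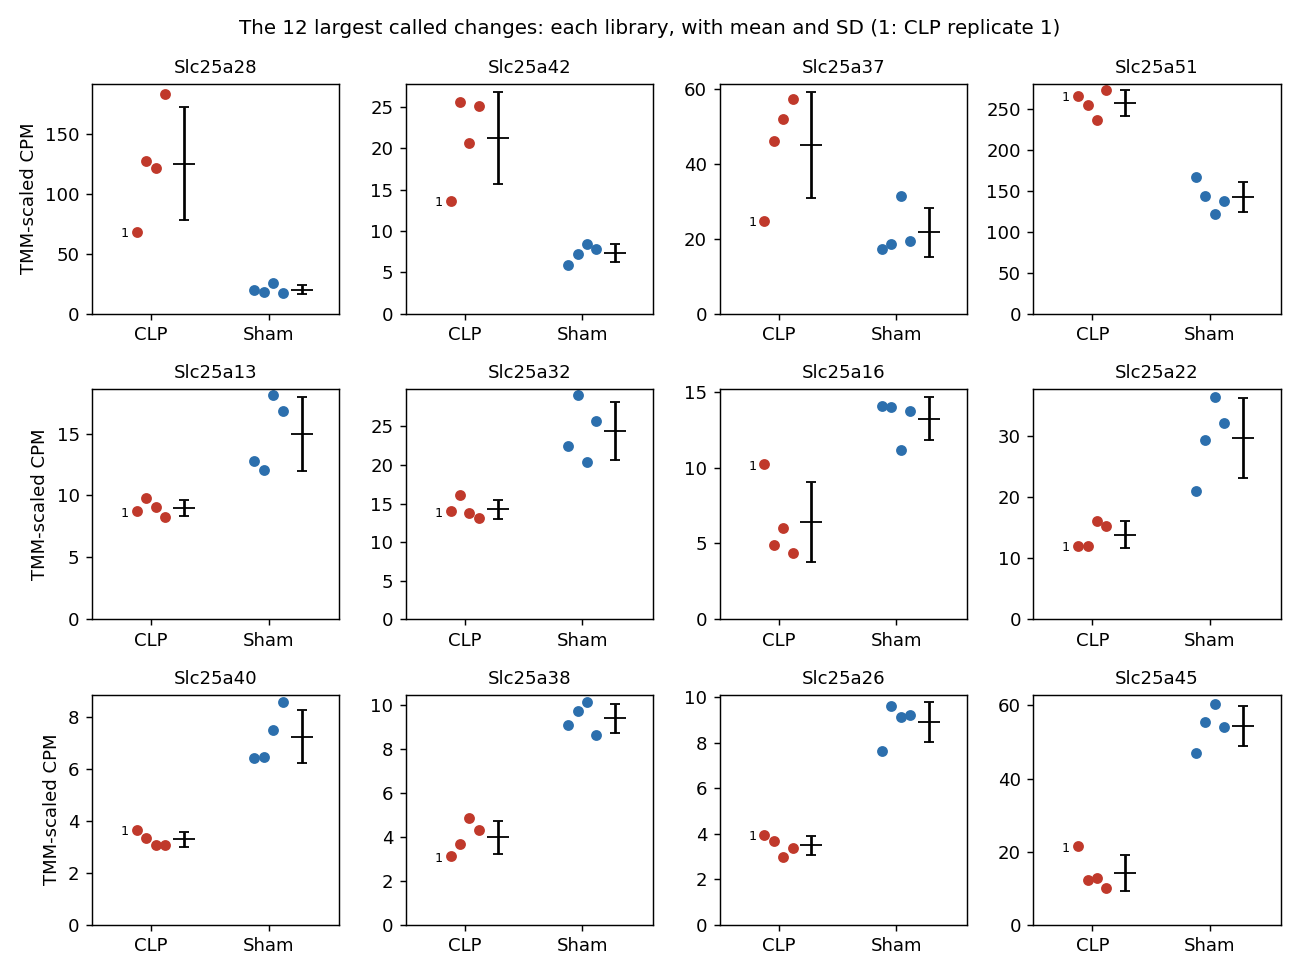
TMM-scaled CPM (y axis, from 0) of the 12 carriers with the largest changes past the threshold and at least 5 CPM in the higher group, 1 point per library, with the mean and SD of each group of 4 beside the points; the digit 1 marks CLP replicate 1. The groups overlap in Slc25a37 and are apart in the other panels, and CLP replicate 1 lies nearest to Sham among the CLP libraries in Slc25a28, Slc25a42, Slc25a37, Slc25a16, Slc25a40, Slc25a26 and Slc25a45.

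The carriers of cofactors and nucleotides changed in both directions: 3 of 9 rose and 5 fell (median log2 fold change -0.41). Slc25a42 had 13.7, 25.6, 20.7 and 25.1 CPM in CLP, against 5.84, 7.25, 8.42 and 7.85 CPM in Sham. All CLP libraries were above all Sham libraries, and CLP replicate 1 was again the lowest of its group. Slc25a42 thus rose by 1.53 ± 0.21 on the log2 scale (edgeR adjusted p = 0.000133). Slc25a51, through which NAD+ enters mitochondria, had 267, 255, 237 and 273 CPM in CLP, against 167, 144, 122 and 137 CPM in Sham. The groups did not overlap, and the log2 fold change was 0.86 ± 0.12 (edgeR adjusted p = 0.000165). On total-count scaling it was 0.31 (adjusted p = 0.0239). Slc25a17, a peroxisomal carrier of coenzyme A, FAD and NAD+, averaged 29.3 ± 1.2 CPM in CLP, against 21.3 ± 2.03 CPM in Sham (SD, n = 4 each), with a log2 fold change of 0.46 (edgeR adjusted p = 0.00382) that turned to -0.09 on total-count scaling.

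Among the carriers that fell, Slc25a26, which imports S-adenosylmethionine, the methyl donor, had 3.95, 3.67, 2.98 and 3.36 CPM in CLP, against 7.64, 9.63, 9.12 and 9.23 CPM in Sham. The groups were apart, at a log2 fold change of -1.35 ± 0.16 (edgeR adjusted p = 6.21e-05). The gene shares 144 bases of exon with Lrig1 on the other strand, and the strand setting of the authors' counting is not given in the sources used here, so reads of the pair may be mixed. Slc25a16, a carrier linked to coenzyme A, had 10.2, 4.92, 6.05 and 4.39 CPM in CLP, against 14.1, 14.0, 11.2 and 13.8 CPM in Sham. CLP replicate 1 was high within its group yet below every Sham library, and the log2 fold change was -1.05 ± 0.25 (edgeR adjusted p = 0.00439). Slc25a32, a carrier of folate and FAD, had 14.0, 16.1, 13.8 and 13.1 CPM in CLP, against 22.4, 29, 20.4 and 25.7 CPM in Sham. These groups were also apart, at -0.78 ± 0.14 on the log2 scale (edgeR adjusted p = 0.000722).

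Slc25a33 and Slc25a36 bring pyrimidine nucleotides into mitochondria. Slc25a36 had 56.8, 82.7, 82.9 and 74.7 CPM in CLP, against 99.2, 96.7, 95.3 and 104 CPM in Sham, with no overlap. Its log2 fold change was -0.41 ± 0.13 (edgeR adjusted p = 0.0184), and the adjusted p was 0.0581 without Sham replicate 4. Slc25a33 had 60.3, 27.1, 12.7 and 18.6 CPM in CLP, against 26.7, 27.2, 24.2 and 32.6 CPM in Sham. CLP replicate 1 was above, and replicates 3 and 4 below, the whole Sham range. Its log2 fold change was 0.10 ± 0.39 with all libraries (edgeR adjusted p = 0.838) and -0.51 without CLP replicate 1 (adjusted p = 0.075).

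Of the 7 carriers of adenine nucleotides, phosphate and ATP-Mg that were tested, 2 rose and 2 fell (median log2 fold change -0.07). Slc25a5 had 320, 284, 291 and 268 CPM in CLP, against 222, 224, 173 and 207 CPM in Sham. Slc25a3, which brings in the phosphate for ATP synthesis, had 248, 262, 240 and 258 CPM in CLP, against 190, 180, 168 and 169 CPM in Sham. In both genes the groups did not overlap. The log2 fold change was 0.49 ± 0.12 for Slc25a5 (edgeR adjusted p = 0.00481) and 0.51 ± 0.10 for Slc25a3 (edgeR adjusted p = 0.00122), while on total-count scaling the values turned to -0.05 and -0.04.

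Slc25a4, the translocase isoform best known from heart and skeletal muscle, had 40.7, 30.7, 35.5 and 32.1 CPM in CLP, against 38.7, 38.6, 28.9 and 40.1 CPM in Sham. The groups overlapped (log2 change of -0.07 ± 0.14 and edgeR adjusted p = 0.674), and the gene was called lower on total-count scaling only (log2 change of -0.62, adjusted p = 0.00186). Slc25a31, the isoform best known from testis, was low, at 0.723 ± 0.524 CPM in CLP, against 2.64 ± 0.650 CPM in Sham (SD, n = 4 each), with all CLP libraries below all Sham libraries and a log2 fold change of -1.84 ± 0.45 (edgeR adjusted p = 0.0051). Slc25a4, Slc25a5 and Slc25a31 are close copies of each other, and how the authors' counting treated reads that match more than 1 of them is not given in the sources used here.

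Slc25a23, Slc25a24 and Slc25a25 are calcium-regulated and exchange ATP-Mg for phosphate. Slc25a25 averaged 21.9 ± 0.614 CPM in CLP, against 34.0 ± 4.85 CPM in Sham (SD, n = 4 each), with no overlap and a log2 fold change of -0.64 (edgeR adjusted p = 0.00104). It shares 379 bases of exon with Naif1 on the other strand. Slc25a23 had 8.70, 8.59, 7.01 and 8.92 CPM in CLP, against 6.91, 8.81, 11.9 and 8.28 CPM in Sham. Slc25a24 had 23, 19.2, 26.2 and 19.5 CPM in CLP, against 21.8, 23.8, 20.3 and 23.8 CPM in Sham. The groups overlapped in both, and neither passed (edgeR adjusted p = 0.629 for Slc25a23 and 0.864 for Slc25a24). Total-count scaling called both lower, at log2 fold changes of -0.67 for Slc25a23 (adjusted p = 0.0122) and -0.58 for Slc25a24 (adjusted p = 0.00282).

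None of the 4 carriers of di- and tricarboxylates and keto acids passed the edgeR test on TMM scaling, nor DESeq2 or limma voom, and the groups overlapped in each. Slc25a1, the citrate carrier that supplies acetyl groups to the cytosol, averaged 26.5 ± 2.32 CPM in CLP, against 21.9 ± 2.94 CPM in Sham (SD, n = 4 each; edgeR adjusted p = 0.084). It passed in 2 alternatives, at a log2 fold change of 0.34 with DESeq2's size factors (adjusted p = 0.0467) and of 0.51 with the GC correction (adjusted p = 0.00594), and turned to -0.27 on total-count scaling (adjusted p = 0.0699). Slc25a10, the dicarboxylate carrier, averaged 33.6 ± 5.27 CPM in CLP, against 37.4 ± 7.85 CPM in Sham (edgeR adjusted p = 0.444, n = 4 each). Slc25a11, which exchanges oxoglutarate for malate, averaged 45.9 ± 10.8 CPM in CLP, against 48 ± 6.58 CPM in Sham (edgeR adjusted p = 0.758, n = 4 each). On total-count scaling Slc25a10 and Slc25a11 were called lower, at log2 fold changes of -0.70 (adjusted p = 0.00247) and -0.61 (adjusted p = 0.00642). Slc25a21, the oxodicarboxylate carrier, stayed under 1 CPM in both groups, so that a change was hard to detect at this depth. The unadjusted edgeR p of Slc25a1 was 0.0503 and those of the other 3 were 0.364 to 0.804.

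Of the amino acid and carnitine carriers 7 of 9 were tested, and 1 rose while 3 fell (median log2 fold change -0.35). Slc25a38 had 3.12, 3.67, 4.86 and 4.29 CPM in CLP, against 9.11, 9.72, 10.1 and 8.65 CPM in Sham. The groups were far apart, at a log2 fold change of -1.24 ± 0.17 (edgeR adjusted p = 0.00016). Slc25a22, a glutamate carrier, had 12, 12, 16.1 and 15.3 CPM in CLP, against 20.9, 29.3, 36.4 and 32.1 CPM in Sham. Again all CLP libraries lay below, at -1.10 ± 0.18 on the log2 scale (edgeR adjusted p = 0.000478).

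Slc25a12 and Slc25a13 exchange aspartate for glutamate and belong to the malate-aspartate shuttle, which moves reducing equivalents into mitochondria. Slc25a13 had 8.74, 9.79, 9.07 and 8.24 CPM in CLP, against 12.8, 12.1, 18.1 and 16.9 CPM in Sham, with no overlap. It fell by 0.74 ± 0.16 on the log2 scale (edgeR adjusted p = 0.00258). Slc25a12 had 53.1, 34.8, 29.8 and 32.0 CPM in CLP, against 49.6, 51.5, 41.1 and 48.5 CPM in Sham. CLP replicate 1 lay above all Sham libraries and the other CLP libraries below them. The log2 fold change of Slc25a12 was -0.35 ± 0.18 with all libraries (edgeR adjusted p = 0.117) and -0.56 without CLP replicate 1 (adjusted p = 0.000955), and on total-count scaling it was -0.90 (adjusted p = 0.00107).

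Slc25a44, a carrier of branched-chain amino acids, averaged 46.5 ± 4.01 CPM in CLP, against 36.3 ± 2.26 CPM in Sham (SD, n = 4 each), with no overlap and a log2 fold change of 0.36 (edgeR adjusted p = 0.0115) that turned to -0.19 on total-count scaling. Slc25a20, the carnitine-acylcarnitine carrier of fatty acid oxidation, averaged 24.2 ± 2.7 CPM in CLP, against 24.9 ± 1.86 CPM in Sham, and missed the threshold (edgeR adjusted p = 0.786, n = 4 each), but was called lower on total-count scaling (log2 fold change -0.60, adjusted p = 0.00125). Slc25a15, an ornithine carrier, averaged 16.9 ± 1.03 CPM in CLP, against 21.2 ± 3.62 CPM in Sham (edgeR adjusted p = 0.0716, n = 4 each), and passed without Sham replicate 1 (log2 fold change -0.42, adjusted p = 0.016) and on total-count scaling (-0.89, adjusted p = 0.000536). The other ornithine carrier, Slc25a2, had too few counts to test, 28 over the CLP libraries and 42 over the Sham libraries.

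Both uncoupling-type carriers that were tested fell. Slc25a14 averaged 0.536 ± 0.159 CPM in CLP, against 2.41 ± 0.3 CPM in Sham (SD, n = 4 each), the largest fall of the family at a log2 fold change of -2.16 ± 0.28 (edgeR adjusted p = 0.000104), on 46 counts in CLP and 308 in Sham. Slc25a30 averaged 20.9 ± 2.84 CPM in CLP, against 26.5 ± 0.961 CPM in Sham (edgeR adjusted p = 0.0304, n = 4 each). It lost the call in 7 of the 8 fits that left out 1 library, with adjusted p up to 0.103. The Slc25a30 call was also lost with DESeq2 (adjusted p = 0.0763). In edgeR it was lost with DESeq2's size factors (adjusted p = 0.0722) and with the GC correction (adjusted p = 0.0598). Of 5 genes of the family with other symbols, 3 were tested. Ucp2, an uncoupling protein of macrophages, averaged 845 ± 239 CPM in CLP, against 1046 ± 84.9 CPM in Sham, and missed the threshold (edgeR adjusted p = 0.17, n = 4 each). Mtch2, which inserts proteins into the outer membrane, rose by 0.38 on the log2 scale (edgeR adjusted p = 0.0133), and Mtch1 fell by 0.38 (edgeR adjusted p = 0.0296). The Mtch2 call was lost on total-count scaling. The Mtch1 call was lost with DESeq2's size factors, with the GC correction and without any 1 of CLP replicates 2 and 4 and Sham replicates 1 to 4.

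Of 7 tested carriers whose substrate is not firmly assigned 4 passed, all lower, and the median log2 fold change was -0.57. Slc25a45 had 21.4, 12.3, 12.9 and 10.0 CPM in CLP, against 47.1, 55.5, 60.4 and 54.2 CPM in Sham. The highest CLP library, replicate 1, had less than every Sham library. It fell by 1.94 ± 0.21 on the log2 scale (edgeR adjusted p = 3.79e-05). Slc25a46, an outer membrane protein that takes part in mitochondrial fusion and fission, averaged 31.6 ± 3.19 CPM in CLP, against 39.7 ± 3.49 CPM in Sham (edgeR adjusted p = 0.0257, n = 4 each). Its call was lost in 5 of the 8 fits without 1 library (adjusted p up to 0.107) and with a replicate block (adjusted p = 0.0505). The Slc25a46 call was also lost with DESeq2 (adjusted p = 0.06) and with DESeq2's size factors in edgeR (adjusted p = 0.0625). The remaining 2 falls were at low levels. Slc25a35 averaged 0.779 ± 0.108 CPM in CLP, against 1.57 ± 0.398 CPM in Sham (log2 change of -1.0 and edgeR adjusted p = 0.013, n = 4 each), and shares 1151 bases of exon with Rangrf on the other strand. Slc25a34 averaged 0.238 ± 0.168 CPM in CLP, against 0.573 ± 0.174 CPM in Sham (log2 change of -1.26 and edgeR adjusted p = 0.042, n = 4 each), with overlapping groups. Its call was lost in 6 of the 8 fits without 1 library, with DESeq2, with the GC correction and without the filter on low counts.

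Slc25a47, a carrier enriched in hepatocytes, averaged 13.6 ± 4.44 CPM in CLP, against 13.2 ± 1.91 CPM in Sham (edgeR adjusted p = 0.874, n = 4 each), beside the hepatocyte sums given above. Slc25a43 and Slc25a53 had lower means in CLP but did not pass (edgeR adjusted p = 0.0618 and 0.0669). Slc25a53 passed without CLP replicate 4 (log2 fold change -0.56, adjusted p = 0.0457). On total-count scaling both were called lower, at -1.12 for Slc25a43 (adjusted p = 0.00173) and -1.01 for Slc25a53 (adjusted p = 0.0012).

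The least abundant genes kept were Slc25a27 with 24 pooled counts and Slc25a29 with 26, and those left out were Slc25a18 with 2 counts and Slc25a41 and Slc25a54 with 0. Slc25a29, a carrier of basic amino acids, had 0, 1, 3 and 0 counts in CLP, against 5, 7, 5 and 5 counts in Sham. The groups were apart, but the counts were too low for the test. Slc25a27 and Slc25a48, with 45 counts, overlapped between the groups.

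Where the family holds close relatives, the ratio of their counts within a library does not depend on the scaling between libraries. Of 9 pairs listed, 6 had at least 10 counts of each gene in every library. Slc25a28 counts were 2.75 times Slc25a37 counts in CLP (2.34 to 3.21 over libraries) and 0.938 times in Sham (0.806 to 1.13). The glutathione carrier ratio, Slc25a39 over Slc25a40, was 20.6 in CLP (17.6 to 22.6) and 8.86 in Sham (7.20 to 10.7). The translocase ratio, Slc25a4 over Slc25a5, was 0.119 in CLP (0.108 to 0.127) and 0.177 in Sham (0.167 to 0.193). In these 3 pairs the groups did not overlap. In each, the two-sided exact permutation test over the 8 libraries gave p = 0.0286, the smallest it can give, and 0.0571 after adjustment over 6 pairs, so none passes the adjusted threshold. Slc25a12 over Slc25a13 was 4.07 in CLP and 3.22 in Sham (exact permutation p = 0.314), Slc25a23 over Slc25a24 was 0.380 in CLP and 0.394 in Sham (exact permutation p = 0.914), and Slc25a33 over Slc25a36 was 0.340 in CLP and 0.279 in Sham (exact permutation p = 0.771). The last ratio ranged from 0.153 to 1.06 over the CLP libraries, with replicate 1 at the top, and from 0.254 to 0.313 over the Sham libraries.

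**Figure D4:**
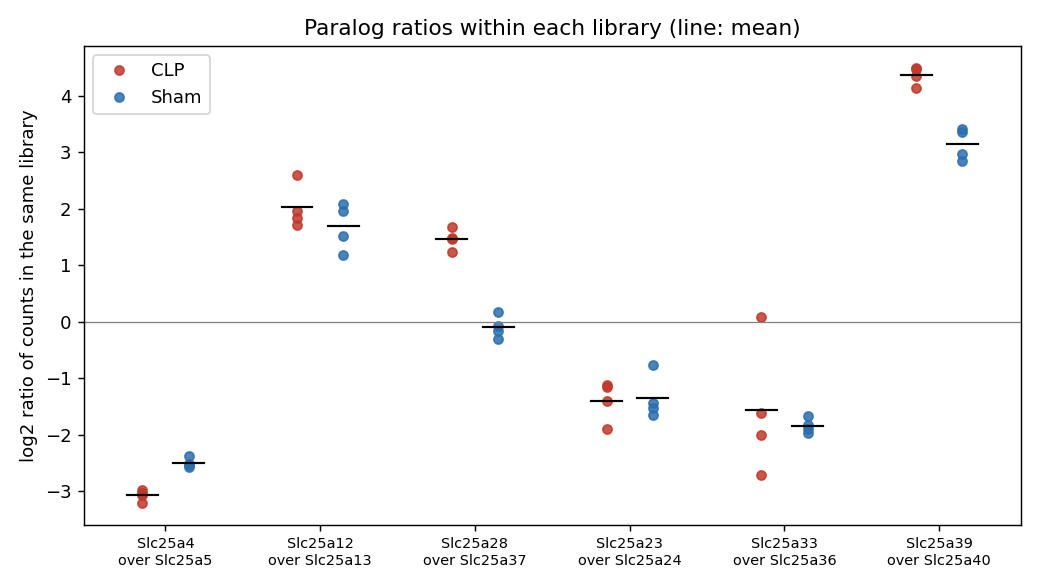
Log2 ratio of the counts of 2 related carriers within each library (y axis), 1 point per library with CLP left of Sham and a line at the mean of each group. CLP and Sham points are apart for Slc25a4 over Slc25a5, Slc25a28 over Slc25a37 and Slc25a39 over Slc25a40, and overlap in the other 3 pairs; the single high CLP point of Slc25a33 over Slc25a36 is replicate 1.

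The genes that the carriers work with were counted in the same fit, and no list was tested as a set. Counts in this and the next 3 paragraphs are to be read beside all genes tested, of which 24.9% rose and 29.5% fell, 54.3% in all. Of 25 tested genes of heme synthesis and iron-sulphur assembly 2 rose and 9 fell (median log2 fold change -0.21), so that 44% were called. Cpox, which makes protoporphyrinogen, had 10.4 ± 2.13 CPM in CLP, against 24.4 ± 2.75 CPM in Sham (edgeR adjusted p = 0.000101, n = 4 each), and Fdxr, the ferredoxin reductase of cluster assembly, had a log2 fold change of -1.36 (edgeR adjusted p = 0.000216). Hspa9, the mitochondrial Hsp70, rose by 0.85 on the log2 scale (edgeR adjusted p = 5.84e-05). Of 28 genes of cofactor and nucleotide supply 4 rose and 16 fell (median -0.68), so that 71.4% were called. Coasy, which completes coenzyme A, had 6.48 ± 0.737 CPM in CLP, against 15.9 ± 1.00 CPM in Sham (edgeR adjusted p = 2.35e-05, n = 4 each). Mat2b, the regulatory subunit of S-adenosylmethionine synthesis, and Tk2, the mitochondrial thymidine kinase, had log2 fold changes of -1.18 and -1.41 (edgeR adjusted p = 1.65e-05 and 0.00015).

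Genes of energy metabolism were counted in the same way. Called were 14% of complexes I to IV, 18.8% of ATP synthase, 27.8% of cycle and 42.9% of mitochondrially encoded genes tested. The share over all genes was 54.3%. Of 57 nuclear subunits of respiratory complexes I to IV 5 rose and 3 fell (median 0.06), with Cycs, cytochrome c, at 18.0 ± 1.92 CPM in CLP, against 12.5 ± 0.844 CPM in Sham (edgeR adjusted p = 0.00387, n = 4 each). Of 16 ATP synthase subunits 3 passed, all higher (median 0.19), and of 18 tricarboxylic acid cycle genes 3 rose and 2 fell (median 0.07). Of 13 mitochondrially encoded subunits 7 were tested and 3 passed, all higher (median 0.38). These counts moved with the scaling. On total counts 42 subunits of complexes I to IV, 8 ATP synthase subunits and 14 cycle genes fell, and none of the genes in these 3 lists or of the mitochondrially encoded ones rose by edgeR. With DESeq2's size factors 11 subunits of complexes I to IV, 5 ATP synthase subunits and 6 cycle genes rose, and with the GC correction 12 subunits of complexes I to IV and 7 cycle genes rose, while in both no cycle gene fell. Single libraries moved them too. Without CLP replicate 1 the falls were 12 among subunits of complexes I to IV and 5 among cycle genes. Without Sham replicate 2, 3 or 4 the rises in complexes I to IV were 2, and without Sham replicate 4 the falls were 1. The falls among cycle genes were 0 without CLP replicate 2, 3 or 4 or Sham replicate 1, 2 or 4, and 1 without Sham replicate 3 and with a replicate block. No mitochondrially encoded subunit passed without CLP replicate 3, CLP replicate 4 or Sham replicate 2.

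Of 14 enzymes beside the citrate, malate and aspartate carriers 4 rose and 3 fell (median -0.0041). Called were 50% of these enzymes and 40% of the pyruvate and fatty acid entry genes below, against 54.3% of all genes. The falls were 9 on total counts, and 1 with DESeq2's size factors, with the GC correction and without CLP replicate 2, 3 or 4 or Sham replicate 2 or 4. Acod1, which makes itaconate from a cycle intermediate in activated macrophages, had 228 ± 64.5 CPM in CLP, against 11 ± 7.36 CPM in Sham (log2 change of 4.38 and edgeR adjusted p = 2.76e-05, n = 4 each). Got1, the cytosolic aspartate aminotransferase, and Gpd2, the mitochondrial glycerol phosphate dehydrogenase, rose by 1.91 and 1.85 on the log2 scale (edgeR adjusted p = 0.000968 and 3.17e-05). Of 20 genes of pyruvate and fatty acid entry 2 rose and 6 fell (median -0.19), with Cpt2 and Cpt1a, the enzymes on either side of the Slc25a20 step, at -1.86 and -1.61 on the log2 scale (edgeR adjusted p = 7.9e-06 and 3.64e-05).

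Of 12 genes of glutathione and mitochondrial redox 4 rose and 2 fell (median 0.12). Called were 50% of these, 53.8% in amino acid and ornithine metabolism and 27.8% in import machinery and porins. For calcium uptake, fusion and fission, and biogenesis the shares were 50%, 40% and 61.5%, against 54.3% of all genes. Prdx5, a peroxiredoxin that reduces peroxides, had 426 ± 17.1 CPM in CLP, against 181 ± 27.5 CPM in Sham (edgeR adjusted p = 2.76e-05, n = 4 each). Sod2, the superoxide dismutase of the matrix, had 1241 ± 152 CPM in CLP, against 170 ± 84.9 CPM in Sham (edgeR adjusted p = 3.09e-05, n = 4 each). Of 13 genes of amino acid and ornithine metabolism 3 rose and 4 fell (median -0.06). Odc1, which turns ornithine into putrescine, had 91.7 ± 15.9 CPM in CLP, against 23.4 ± 2.17 CPM in Sham (edgeR adjusted p = 3.89e-06, n = 4 each). Arg2, the mitochondrial arginase, had 310 ± 65.9 CPM in CLP, against 24.1 ± 14.1 CPM in Sham (edgeR adjusted p = 1.97e-05, n = 4 each). Of 18 import machinery and porin genes 3 rose and 2 fell (median -0.03), with Vdac2, a porin of the outer membrane, up by 0.85 on the log2 scale (edgeR adjusted p = 4.61e-05). Of 8 calcium uptake genes 2 rose and 2 fell (median -0.01). The falls were 0 with the GC correction and without CLP replicate 2, 3 or 4 or Sham replicate 2 or 4, and 1 without Sham replicate 1 or 3. The rises were 1 with a replicate block and without CLP replicate 1, 2 or 3 or Sham replicate 2, 3 or 4. Of 10 fusion and fission genes 4 passed, all lower (median -0.22), and 1 was higher without CLP replicate 1 and with DESeq2's size factors. Of 13 regulators of mitochondrial biogenesis 1 rose and 7 fell (median -0.45), with Polrmt, the mitochondrial RNA polymerase, at 2.89 ± 0.218 CPM in CLP, against 15.6 ± 0.832 CPM in Sham (edgeR adjusted p = 1.17e-06, n = 4 each). The rises there were 2 without CLP replicate 1 or Sham replicate 2. On total counts the falls were 22 in heme synthesis and iron-sulphur assembly, 16 in pyruvate and fatty acid entry, 15 in import machinery and porins, 10 in fusion and fission, 9 in amino acid and ornithine metabolism, 7 in redox and 6 in calcium uptake, and the rises were 1 in heme synthesis and iron-sulphur assembly, 1 in import machinery and porins, and 0 in pyruvate and fatty acid entry and in calcium uptake.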

How the data were processed

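Total RNA (Aurum kit) was made into TruSeq stranded libraries for an Element AVITI sequencer, per the labels' protocols, which do not describe the sort gate. The deposited table holds raw read counts per Ensembl gene, made by the authors with FastQC, STAR 2.7.10b, featureCounts and the assembly mm39, and analysed by them with DESeq2, per the submitters' processing notes. Not given in the sources used here are the annotation release, the treatment of multiply matching reads and the strand setting.

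Symbols, exon lengths and GC content came from GENCODE M21 (build GRCm38). They covered 52081 IDs and 99.8% of all counts. Promoters came from the RefSeq table on GRCm38.p6. After filterByExpr and TMM scaling, edgeR 4.0.16 (R 4.3.3) was run with a robust quasi-likelihood F-test with Benjamini-Hochberg adjustment over 14655 genes and a threshold of 0.05. The SE is the absolute log2 fold change over the square root of F. Pair ratios used counts plus 0.5 and a two-sided exact permutation test over 35 splits. On simulated counts the same fit recovered 16, 33, 47 and 49 of 50 genes at folds of 1.5, 2, 4 and 8, with 4 false calls among 149. The simulation changed only these genes among 14655, as many up as down, and had no shift in library composition. In the real counts 54.3% of genes were called and the scaling factors differed between the groups. The simulated figures therefore do not cover errors that come from the scaling.

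The members, substrate classes, pairs and gene lists were chosen with earlier results of these data known. Per-library values are given for the 12 largest called changes with at least 5 CPM in the higher group, the 3 highest levels per length, the tested pairs and the genes at the limit of 10 counts. Other members appear with their class, except 1 that is included in all counts and sums but not reported here, and in each list of related genes up to 3 with the smallest p are named. Alternatives were DESeq2's size factors, total-count scaling, a GC correction, no filter, DESeq2 1.42.0, limma 3.58.1 voom, a replicate block and leaving out each library. Libraries with the same number showed no shared deviation, so the main fit did not pair them.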

Additional observations from a re-analysis of the deposited data

Results flagged for a closer look

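In each of the 40 carriers tested the 4 libraries of a group were examined for 1 that lay far from the other 3. The gap was taken as a share of the group's range. This was so in 5 of 80 groups, and chance alone gives about 1 in 20. Sham replicate 3 was the library in 4 of them. It had 31.5 CPM of Slc25a37, above the other Sham libraries at 17.4 to 19.4 CPM. It had less than the others of 3 genes: 28.9 CPM of Slc25a4 against 38.6 to 40.1 CPM, 11.2 CPM of Slc25a16 against 13.8 to 14.1 CPM, and 18.2 CPM of Slc25a17 against 22.0 to 22.6 CPM. CLP replicate 4 had 0.488 CPM of Slc25a34, against 0.125 to 0.183 CPM in the other CLP libraries, at counts too low to weigh.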

How the results depend on the processing

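Of the 25 carriers called, 16 kept their direction and call in all 15 alternatives (3 higher, 13 lower). The others lost the call at least once: Slc25a3, Slc25a5, Slc25a17, Slc25a37 and Slc25a44 on total-count scaling, Slc25a44 also without the filter on low counts, and Slc25a30, Slc25a34, Slc25a36 and Slc25a46 in other alternatives. Total-count scaling gave 3 carriers higher and 28 lower, and 1715 genes higher and 8292 lower over all genes, so that 17.1% of calls were higher against 45.8% with TMM; its construction omits the composition correction. The log2 fold change turned there to -0.27 for Slc25a1, -0.041 for Slc25a3, -0.055 for Slc25a5, -0.091 for Slc25a17, -0.45 for Slc25a33, -0.45 for Slc25a39, -0.19 for Slc25a44 and -0.52 for Slc25a47, and the marker ratios (CLP over Sham) to 0.840 for Kupffer cells, 0.842 for hepatocytes, 0.914 for sinusoidal endothelium, 0.856 for monocytes and 0.912 for stellate cells. For the ratios that passed before, B cells gave 1.26 (exact permutation p = 0.229). The GC correction turned Slc25a4 to 0.033, Slc25a10 to 0.11, Slc25a11 to 0.0599, Slc25a20 to 0.043 and Slc25a23 to 0.064. DESeq2's size factors turned Slc25a20 to 0.021 and Slc25a24 to 0.032, DESeq2 itself gave 0.0042 and 0.015 for these genes, voom gave -0.13 for Slc25a33 and -0.0052 for Slc25a47, and no filter gave -0.014 for Slc25a47. The cause was not tested.

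With the replicate number as a block 8 carriers were higher and 16 lower, Slc25a33 turned to -0.14 and Slc25a46 lost its call. Deviations of libraries with the same number correlated at 0.17, -0.12, 0.13 and -0.09, and no CLP library correlated best with its own number. No shared deviation by number was thus seen, but so few correlations cannot exclude that samples were handled in numbered pairs.

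Leaving out each library in turn gave 8 carriers higher each time and 13 to 17 lower, and 3244 to 4235 genes higher and 3716 to 4997 lower. The log2 fold change crossed 0 within -0.26 to 0.0039 for Slc25a10, -0.24 to 0.019 for Slc25a11, -0.10 to 0.013 for Slc25a20, -0.63 to 0.18 for Slc25a21, -0.19 to 0.056 for Slc25a23, -0.12 to 0.036 for Slc25a24, -0.51 to 0.36 for Slc25a33, -0.0039 to 0.17 for Slc25a39 and -0.19 to 0.17 for Slc25a47, none of them called. The difference in log2 ratio crossed 0 within -0.15 to 0.14 for Slc25a23 over Slc25a24 and -0.26 to 0.67 for Slc25a33 over Slc25a36. Carriers under 1 CPM had too few counts for small changes to be detected.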
